A study of Homo sapiens with 6 samples.

Results

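The E2F and RB family was followed in U2932 cells, an established line of the ABC subtype of diffuse large B-cell lymphoma, after silencing of the kinase ROCK2. The 10 members were taken by gene symbol from the 20667 symbols in each library: the E2F factors E2F1, E2F2, E2F3, E2F4, E2F5, E2F7 and E2F8, their dimerization partner TFDP1, and the pocket proteins RB1 and RBL1. All 10 passed the filter on low values and were among the 10526 genes tested. The 6 RNA-seq libraries were 3 of ROCK2 knockdown cells (ROCK2 KD), which stably express an shRNA against ROCK2, and 3 of control cells with a scrambled shRNA (Scr shRNA), numbered as replicates 1, 2 and 3 in both groups. Cells of both groups had been infected with lentiviral pLKO.1 vectors that carry puromycin resistance and tGFP, and were sorted and kept under puromycin as stable lines. The study lists 1 shRNA construct against ROCK2, so a difference between the groups cannot be told apart from an effect of that construct or of the lines. Nothing in the labels says that the replicates came from separate cultures, and p values then measure the spread between these libraries alone. The comparison asks whether the mRNAs of the machinery that controls entry into S phase differed between U2932 cells with the ROCK2 shRNA and those with the scrambled one.

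E2F factors bind DNA as dimers with a DP protein such as TFDP1 and control the genes of DNA replication and cell-cycle entry. E2F1, E2F2 and E2F3 are activators that the retinoblastoma protein RB1 holds inactive until cyclin-dependent kinases phosphorylate it, whereas E2F4 and E2F5 mostly act as repressors together with RBL1 (p107) and the related RBL2 (p130). E2F7 and E2F8 are atypical members that bind DNA without a DP partner, are not bound by pocket proteins and repress E2F targets late in S phase. Several members are E2F targets themselves, and in bulk RNA a smaller share of cells in the phase that expresses a gene and less of its mRNA per cell cannot be told apart.

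The promoters of several members carry the word that E2F dimers recognize. RefSeq promoter windows (GRCh38.p14, 250 bases before to 50 bases after a start site) were matched for 8 of the 10 members in 9 windows, and the words searched, on both strands, were TTTCCCGC, TTTCGCGC, TTTGCCGC and TTTGGCGC, together with the same words without their last base. A match of 8 letters always contains one of 7. The 100 bases before the start site are shown for the 4 members with matches close to it, since E2F1 and E2F2 had the lowest log2 fold changes of the members, while E2F3 and RBL1 had values near 0 and E2F words as well. Sequences run 5′ to 3′ on the strand of the gene, and capitals mark the E2F words on either strand.
E2F1, chr20:33686386-33686485, minus strand: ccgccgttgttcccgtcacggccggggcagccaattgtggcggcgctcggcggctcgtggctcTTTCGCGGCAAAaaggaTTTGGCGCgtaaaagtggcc
E2F2, chr1:23531234-23531333, minus strand: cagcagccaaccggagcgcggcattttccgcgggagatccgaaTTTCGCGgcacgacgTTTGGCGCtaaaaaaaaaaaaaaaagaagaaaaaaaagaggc
E2F3, chr6:20401779-20401878, plus strand: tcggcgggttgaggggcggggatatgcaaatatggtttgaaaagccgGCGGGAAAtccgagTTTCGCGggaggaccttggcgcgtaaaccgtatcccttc
RBL1, chr20:37095998-37096097, minus strand: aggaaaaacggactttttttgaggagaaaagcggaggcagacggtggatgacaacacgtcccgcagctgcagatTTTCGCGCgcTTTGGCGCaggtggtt

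Counting 7-letter words, the E2F1 window held 3 matches, which lie within 37 bases before the start site. The E2F2, E2F3 and RBL1 windows held 2 each and the TFDP1 window held 1. A word of 8 letters was present in 5 of the 9 windows, against 3.31% of all 35116 promoter windows, and a word of 7 letters in the same number, against 8.67%. The windows of E2F4 and E2F7 held neither, and nor did the second E2F3 window, whose start site lies 1735 bases into the gene. That second window held an E-box, CACGTG, found in 7.26% of all windows, and the first held the CHR word TTTGAA, found in 15.2%. The start site of the RB1 window in the table lies 172699 bases into the gene, and the window is not the one at its first exon. A match of letters describes the window and does not show that a factor binds there.

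**Figure D1:**
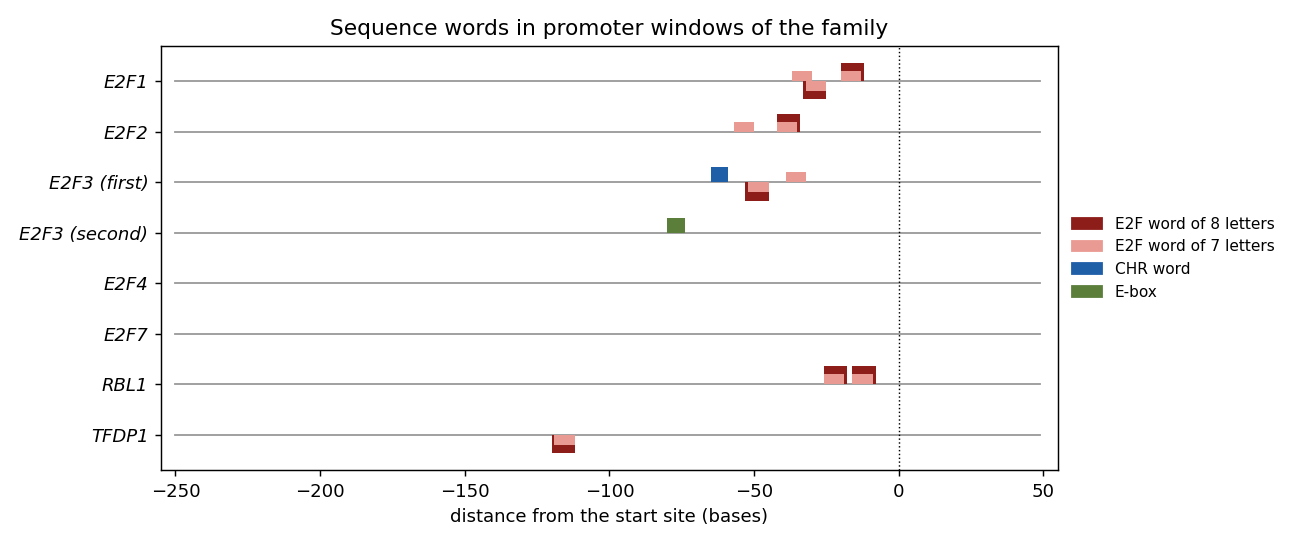
Positions of sequence words in the promoter windows of 7 members, by distance in bases from the start site (dotted line, position 0). Blocks above a line are on the strand of the gene and blocks below it on the other strand. All E2F words lie before the start site, and those of E2F1, E2F2, E2F3 and RBL1 lie within 57 bases of it.

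The FPKM of a library summed to between 208289 and 480612, lowest in both libraries of replicate 1, and each library was therefore divided by a scaling factor (0.786 to 1.16), which gives the scaled FPKM used below. Judged by the worth of 1 read in the lowest values, the depth of the libraries lay between 71.4% and 100% of that of Scr shRNA replicate 3, and in pair 2 it was 77.4% in ROCK2 KD against 92.7% in Scr shRNA. ROCK2 itself was lower in all 3 ROCK2 KD libraries than in any Scr shRNA library, with log2 differences of -0.53, -0.36 and -1.56 in pairs 1, 2 and 3, so that pair 3 had the largest loss (log2 fold change -0.81, SE 0.23, limma adjusted p = 0.801). Of 6 B-cell markers, 5 had an FPKM of at least 1 in all libraries. CD22, one of them, was at 29.1 in ROCK2 KD replicate 3 against 85.5 in its Scr shRNA partner, and whether this bears on the values of pair 3 was not tested. All 6 T-cell and all 4 myeloid markers were under an FPKM of 1 in all libraries. Of 5 markers of fibroblasts and packaging cells, COL1A1, COL1A2 and KRT18 were under 1, while EPCAM lay between 2.59 and 5.00 and CDH2 between 32.9 and 174.

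The family spans a wide range of mRNA levels, and FPKM, being relative to length, allow the genes to be compared. TFDP1 was the highest of the 10 in each of the 6 libraries, at 3.10 to 5.50 times the FPKM of E2F4, which was second in each of them. E2F5, E2F2 and E2F1 came next by mean scaled FPKM (20.6, 16.9 and 16.2), followed by RB1 and E2F3 (10.5 and 9.21) and by E2F8, E2F7 and RBL1 (6.20, 5.99 and 5.01). Below E2F4 most neighbors in this order exchanged places: E2F2 exceeded E2F1 in 4 of 6 libraries, and E2F8 exceeded E2F7 in 3 of 6. E2F3 was the exception and exceeded E2F8 in all 6, by as little as 1.01 times. Placed among all genes tested by mean log2 level, TFDP1 lay at the 97.4th percentile, E2F4 at the 84.8th and RBL1, the lowest member, at the 32.2nd.

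**Figure D2:**
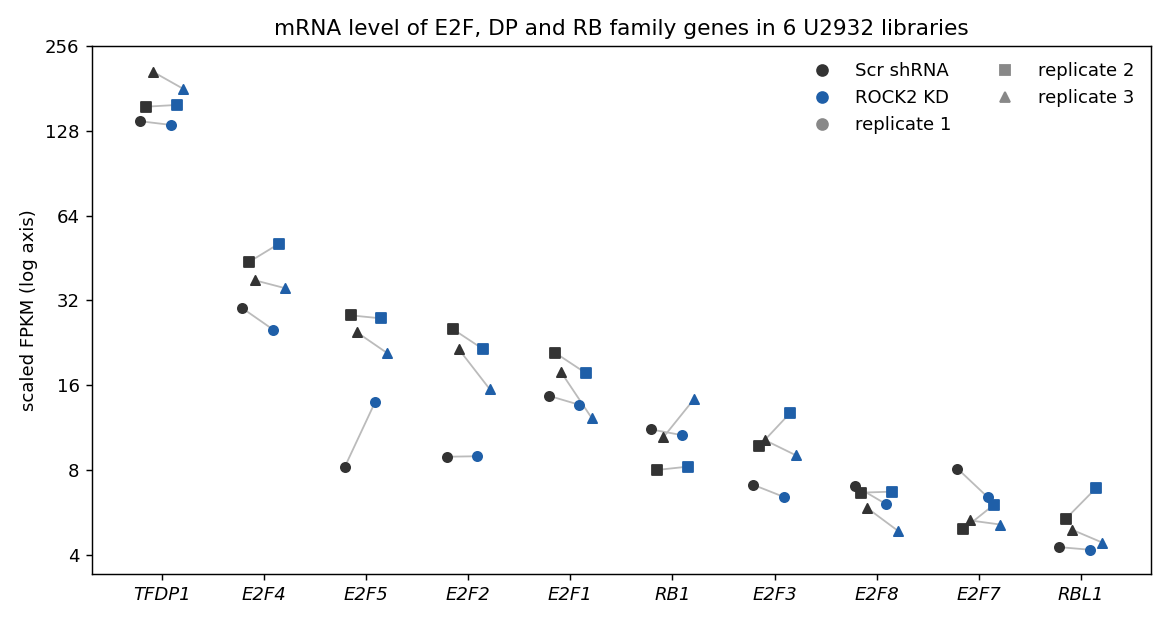
Scaled FPKM (log axis) of the 10 members in each library, ordered by mean level. Black points are Scr shRNA and blue points ROCK2 KD libraries, the shape gives the replicate number, and gray lines join the libraries of a pair. TFDP1 and E2F4 stand above the other members in all 6 libraries, and for each gene the ROCK2 KD and Scr shRNA values overlap.

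E2F1 was the only member with lower mRNA in ROCK2 KD in all 3 pairs, that is 1 of 10, where 12% of the genes tested were lower in all 3. With quantile normalization the count was 3 of 10, and the share of all genes in that setting is not given here. E2F1, on chromosome 20 of GRCh37 from 32263283 to 32274191 on the minus strand, is the activator best known for driving both S-phase entry and, when in excess, cell death. Its scaled FPKM were 13.6, 17.7 and 12.3 in ROCK2 KD replicates 1, 2 and 3, and 14.7, 20.9 and 17.8 in the Scr shRNA libraries of the same numbers. The ROCK2 KD value was the lower one in each pair, but ROCK2 KD replicate 2 lay above Scr shRNA replicate 1, so the groups overlapped. The log2 differences were -0.10, -0.23 and -0.51 in pairs 1, 2 and 3. Pair 3, in which E2F1 differed most, also had the largest loss of ROCK2, but pair 2, with the smallest loss of ROCK2, was not the one in which E2F1 differed least. The mean levels were 14.5 ± 2.83 in ROCK2 KD and 17.8 ± 3.10 in Scr shRNA (SD, n = 3 each), and the fit on the log2(scaled FPKM + 1) scale put E2F1 1.21-fold lower (log2 fold change -0.28, SE 0.12, 95% confidence interval -0.56 to 0.00075, from limma with the replicate as a block, as are all fits below unless said otherwise). The limma adjusted p was 0.902 (unadjusted p = 0.0505), so E2F1 did not pass. Its absolute log2 fold change exceeded that of 91.6% of the genes tested. From these same libraries the study lists E2F1 and E2F2 among genes induced by ROCK2, differentially expressed at a false discovery rate under 0.05. Its limma fit used batch-corrected raw counts, whereas scaled FPKM with a replicate block were used here. The direction of E2F1 and E2F2 here is thus not independent evidence.

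E2F2, on chromosome 1 from 23832930 to 23857725 on the minus strand, is the activator known for restraining the proliferation of lymphocytes as well as promoting S phase. Its scaled FPKM were 8.97, 21.5 and 15.5 in ROCK2 KD and 8.93, 25.3 and 21.5 in Scr shRNA replicates 1, 2 and 3. It was level in pair 1 and lower in ROCK2 KD in pairs 2 and 3, by log2 differences of 0.0054, -0.23 and -0.44. Both libraries of replicate 1 were far below the others. The log2 fold change was -0.22 (SE 0.12, 95% confidence interval -0.51 to 0.063, limma adjusted p = 0.956). The means of the 3 replicate pairs covered 1.29 on the log2 scale, a wider range than for 89.5% of the genes tested, and wider than its log2 fold change.

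E2F3, on chromosome 6 from 20402110 to 20493945, has 2 alternative start sites whose products differ at their N terminus, and a gene-level FPKM does not separate them. It did not keep the direction of E2F1 and E2F2. Its scaled FPKM were 6.43, 12.7 and 9.03 in ROCK2 KD and 7.10, 9.75 and 10.2 in Scr shRNA replicates 1, 2 and 3. ROCK2 KD was higher in pair 2, by a log2 difference of 0.35, and lower in pairs 1 and 3, by -0.12 and -0.16. The log2 fold change was 0.023 (SE 0.14, 95% confidence interval -0.30 to 0.34, limma adjusted p = 0.996).

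Among the repressor E2Fs, E2F4 and E2F5 showed no shared direction. E2F4, on chromosome 16 from 67226058 to 67232821, is the main E2F of resting cells. It was measured at 25.2, 50.9 and 35.4 in ROCK2 KD and at 30.0, 43.7 and 37.8 in Scr shRNA replicates 1, 2 and 3. As for E2F3, ROCK2 KD was higher in pair 2 and lower in pairs 1 and 3 (log2 differences 0.21, -0.24 and -0.092). The group means were equal at 37.2 scaled FPKM, and the log2 fold change was -0.040 (SE 0.12, 95% confidence interval -0.32 to 0.24).

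E2F5, the other pocket-protein partner among the repressors, lies on chromosome 8 from 86089389 to 86129387 and had the widest spread of the family. Its scaled FPKM were 13.98, 27.6 and 20.8 in ROCK2 KD and 8.18, 28.3 and 24.7 in Scr shRNA replicates 1, 2 and 3. A single library, Scr shRNA replicate 1, was far below the other 5, and pair 1 thus had the largest log2 difference of any member, 0.71. Pairs 2 and 3 had the other sign, -0.034 and -0.24. The mean log2 fold change was 0.14 (SE 0.18, 95% confidence interval -0.29 to 0.57, limma adjusted p = 0.979), and without replicate 1 it was -0.14. Of the annotated exon bases of E2F5, 16.5% are shared with RBIS, a gene on the other strand, and whether the counting used strand is not given in the sources used here.

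The atypical E2Fs were among the lowest members and differed little. E2F7, on chromosome 12 from 77415028 to 77459349, and E2F8, on chromosome 11 from 19245610 to 19263167, encode factors that act together in cells of most tissues. E2F7 was at 6.40, 6.04 and 5.13 in ROCK2 KD and at 8.11, 4.95 and 5.31 in Scr shRNA replicates 1, 2 and 3, with log2 differences of -0.30, 0.24 and -0.041. E2F8 was at 6.07, 6.71 and 4.87 in ROCK2 KD and at 7.03, 6.66 and 5.86 in Scr shRNA, with log2 differences of -0.18, 0.010 and -0.23. E2F8 was therefore lower in pairs 1 and 3 and level in pair 2. The log2 fold changes were -0.032 (SE 0.13) for E2F7 and -0.13 (SE 0.11) for E2F8, with limma adjusted p values of 0.995 and 0.970. Unlike the other E2Fs, E2F7 was highest in replicate 1 by the mean of the pair.

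TFDP1 supplies the DP subunit of E2F dimers and lies on chromosome 13 from 114239036 to 114295788. Its scaled FPKM were 134, 158 and 180 in ROCK2 KD and 138, 156 and 208 in Scr shRNA replicates 1, 2 and 3. The pairs differed by -0.043, 0.021 and -0.20 on the log2 scale, a difference visible in pair 3 only. The log2 fold change was -0.075 (SE 0.095, 95% confidence interval -0.30 to 0.15, limma adjusted p = 0.979). The annotation holds 3 processed pseudogenes named after TFDP1, 2 after E2F3 and 1 after E2F4, between which and the parent genes reads can be split.

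The pocket proteins had positive log2 fold changes whose 95% confidence intervals included 0. RB1, the tumor suppressor on chromosome 13 from 48877880 to 49173572, was at 10.7, 8.23 and 14.3 scaled FPKM in ROCK2 KD and at 11.2, 8.02 and 10.5 in Scr shRNA replicates 1, 2 and 3. Pair 3 alone stood out, with ROCK2 KD higher by 0.41 on the log2 scale, whereas pairs 1 and 2 were at -0.061 and 0.034. The log2 fold change of RB1 was 0.13 (SE 0.13, 95% confidence interval -0.17 to 0.43, limma adjusted p = 0.970), and without replicate 3 it was -0.013. RBL1, on chromosome 20 from 35624752 to 35724400, was at 4.18, 6.92 and 4.43 in ROCK2 KD and at 4.27, 5.37 and 4.92 in Scr shRNA. Like E2F3, it was higher in ROCK2 KD in pair 2 (0.31) and slightly lower in pairs 1 and 3 (-0.025 and -0.13), and its log2 fold change was 0.054 (SE 0.13).

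**Figure D3:**
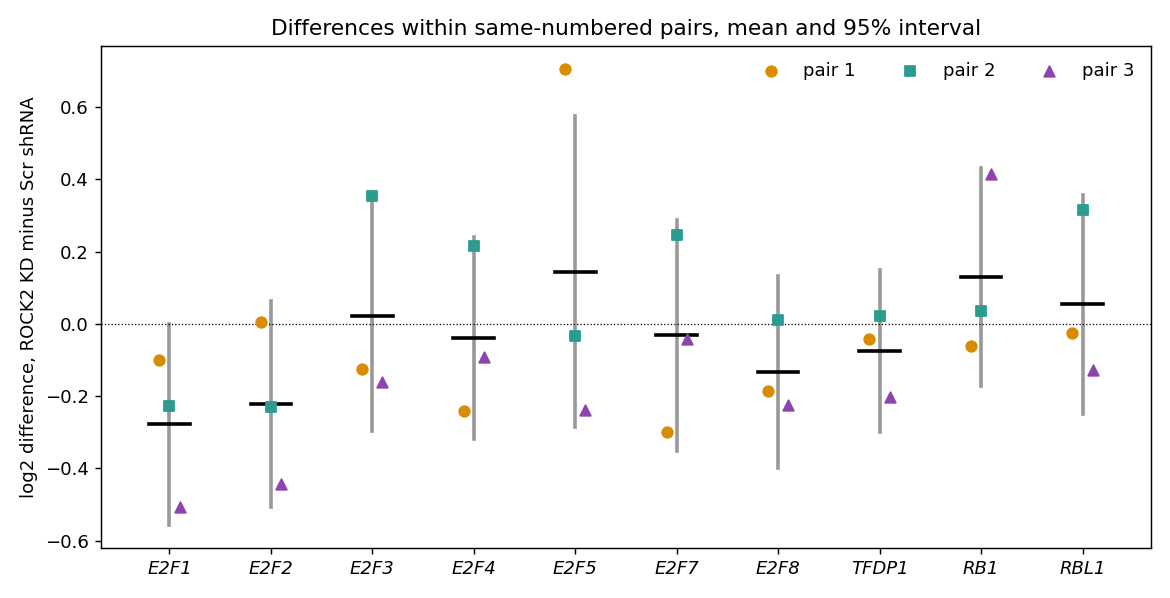
Log2 difference, ROCK2 KD minus Scr shRNA, of the 10 members in each of the 3 pairs (points), with the mean (black bar) and its 95% confidence interval from limma with the replicate block (gray line). E2F1 is below 0 in all 3 pairs, E2F3, E2F4, E2F7, E2F8, TFDP1 and RBL1 are above 0 in pair 2 only, and every interval includes 0.

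Counted over the family, 6 members had a negative and 4 a positive log2 fold change, with a median of -0.036 beside a median of -0.0022 over all genes tested. Of the 10 members, 1 was lower in all 3 pairs, against 12% of the genes tested, and 0 were higher in all 3, against 13.1%. No member passed limma at an adjusted p under 0.05, and nor did any of the genes tested (0%). At an unadjusted p under 0.05 the count was 0 as well, against 5.44% of the genes tested with the replicate as a block and 0.247% without it. ComBat on the replicate number before limma called 2.81% of the genes tested at an adjusted p under 0.05 (1.25% lower in ROCK2 KD), but none of the 10 members, and E2F1 came closest with an adjusted p of 0.0860. The 2 groups overlapped for all 10 members, where 0.76% of the genes tested had all ROCK2 KD libraries below all Scr shRNA libraries and 0.922% had them above. The pairs disagreed with each other: 8 members were lower in ROCK2 KD in pair 1, 3 in pair 2 and 9 in pair 3, against 47.9%, 50.1% and 50% of the genes tested. For all 10 members the range between the means of the replicate pairs was larger than the absolute log2 fold change. This is no mark of the family, since the median of that range over all genes tested was 0.587 while the middle 50% of their log2 fold changes lay between -0.091 and 0.085. Of the 10, 7 members were highest in replicate 2, as were 33.4% of the genes tested.

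The make-up of the E2F mRNA pool does not depend on the scaling of a library. The activators E2F1, E2F2 and E2F3 together gave 35.98%, 36.2% and 35.7% of the summed E2F FPKM in ROCK2 KD replicates 1, 2 and 3, and 36.5%, 40.1% and 40.2% in Scr shRNA. Their share was thus lower in ROCK2 KD in each pair, by little in pair 1, and the highest ROCK2 KD library lay just under the lowest Scr shRNA library. The ratio of activator to repressor FPKM was 0.741, 0.661 and 0.655 in ROCK2 KD against 0.804, 0.777 and 0.792 in Scr shRNA. In pair 1 both measures depend on E2F5, at 9.73% of the pool in Scr shRNA replicate 1 against 17.3% in its ROCK2 KD partner. A low E2F5 raises the activator share and ratio of its library, and neither was computed without E2F5. These shares were put together after the values of the genes had been seen, and carry no test. The 3 activators did not share one direction in each pair. E2F1 took a smaller share in ROCK2 KD than in Scr shRNA in each pair, at 16.9% against 17.5%, 12.4% against 14.96% and 11.9% against 14.5% in pairs 1, 2 and 3. E2F2 took a larger share in pair 1, at 11.1% against 10.6%, and a smaller one in pairs 2 and 3, at 14.98% against 18.1% and 15.1% against 17.4%. E2F3 took a smaller share in pair 1, at 7.97% against 8.45%, and a larger one in pairs 2 and 3, at 8.89% against 6.98% and 8.77% against 8.29%. The atypical E2Fs gave 15.4% and 18.01% in the replicate 1 libraries and between 8.31% and 9.71% in the other 4. In this share, libraries of 1 replicate number resembled each other more than those of 1 group, unlike in the summed activator share. Set against the pocket proteins, the summed activator FPKM were 1.96, 3.42 and 1.97 times those of RB1 and RBL1 together in ROCK2 KD, and 1.99, 4.18 and 3.22 times in Scr shRNA.

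**Figure D4:**
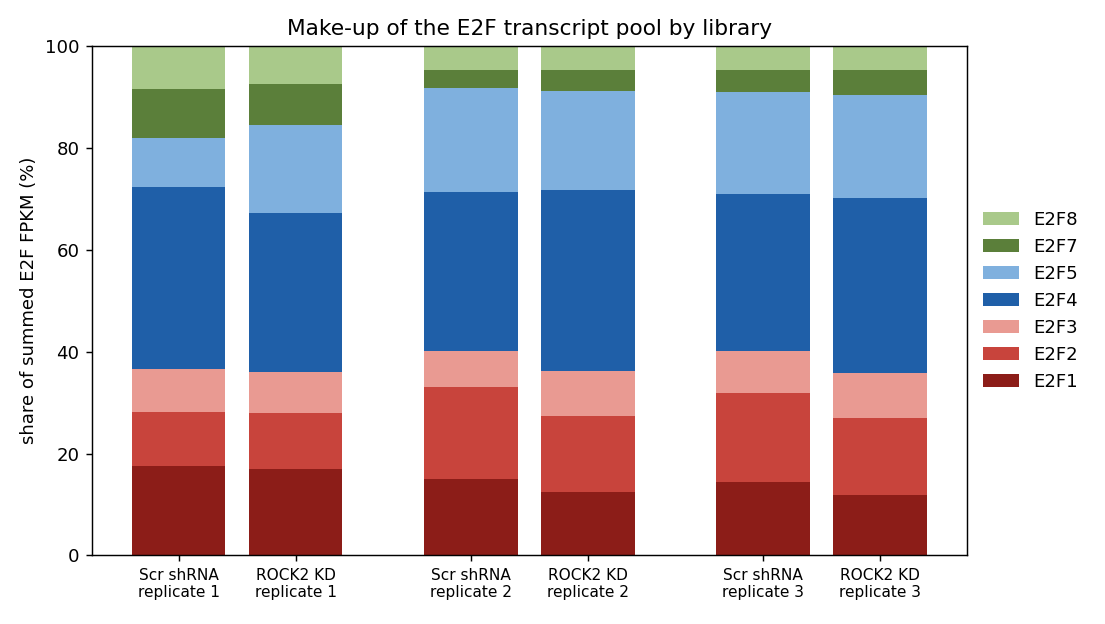
Share of each E2F gene in the summed FPKM of the 7 E2F genes (percent), by library, with the Scr shRNA and ROCK2 KD library of each replicate side by side. The activators (red shades) fill 35.7% to 36.2% of the ROCK2 KD bars and 36.5% to 40.2% of the Scr shRNA bars, and E2F5 (light blue) is narrow only in Scr shRNA replicate 1.

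The genes that E2F factors are known to drive at the G1/S transition were mostly on the lower side in ROCK2 KD, without passing the test. Of 41 such genes, all of which were tested, 35 had a negative log2 fold change, against 50.6% of the genes tested, with a median of -0.087. Of these, 8 were lower in all 3 pairs (19.5%, against 12%), and 1, the thymidylate synthase gene TYMS, was higher in all 3. The list median was 0.034 in pair 1, -0.080 in pair 2 and -0.23 in pair 3, and without replicate 3 the number of genes with a negative log2 fold change was 23 of 41. Before adjustment 3 genes reached a limma p under 0.05, all lower in ROCK2 KD, where 2.3% of the genes tested were called in that direction, and 0 passed after adjustment. The 3 were CDT1, BRCA1 and RFC4.

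CDT1 loads the MCM helicase onto replication origins. It was at 14.8, 11.4 and 23.6 scaled FPKM in ROCK2 KD and at 20.4, 18.2 and 30.5 in Scr shRNA replicates 1, 2 and 3, lower in each pair by log2 differences of -0.44, -0.63 and -0.36. BRCA1, which acts in the repair of DNA breaks by homologous recombination, was lower by a log2 fold change of -0.31 (SE 0.11), and RFC4, a subunit of the clamp loader of PCNA, had -0.24 (SE 0.092). In limma the 3 genes came to adjusted p values of 0.791, 0.879 and 0.902. The study lists CDT1 and BRCA1 too among the genes induced by ROCK2 at a false discovery rate under 0.05, from the same libraries. MCM2, MCM3, CDC6, FEN1 and CHAF1A, other replication genes, were the remaining ones that were lower in all 3 pairs.

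Of the genes of the other lists around E2F and RB, 0 passed after adjustment. Of 20 genes of the G2/M phases, 10 had a negative and 10 a positive log2 fold change, with a median of 0.016, and their medians in pairs 1, 2 and 3 were 0.17, 0.050 and -0.16. The 3 with the lowest unadjusted p, BUB1, TOP2A and CDK1, had log2 fold changes of 0.14, -0.21 and 0.13. Of the partners of the family and the MuvB complex, 11 of 12 were tested, 6 with a negative and 5 with a positive value and a median of -0.012. TFDP3 was listed at 0 in all 6 libraries. RBL2, the third pocket protein, was higher in ROCK2 KD in all 3 pairs, but by as little as 0.0022 in pair 2 (log2 fold change 0.10, SE 0.11), while LIN52 and LIN54, subunits of MuvB, had 0.12 and 0.10.

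Among the kinases that phosphorylate RB1 and their inhibitors, 13 of 16 genes were tested, and 9 of them had a positive log2 fold change, with a median of 0.077. CCND1, CCND2 and CDKN1C were below the filter. CDKN2B, which encodes the CDK4 and CDK6 inhibitor p15, was the only gene of the list under 0.05 before adjustment, where 3.14% of the genes tested were called higher in ROCK2 KD. It was low, at 2.74, 1.51 and 4.57 scaled FPKM in ROCK2 KD and 1.66, 1.30 and 2.97 in Scr shRNA replicates 1, 2 and 3, higher in each pair, by 0.37 on the log2 scale (SE 0.13, unadjusted p = 0.0237, limma adjusted p = 0.879). CDKN1A, which encodes the inhibitor p21, was at 0.24 on the log2 scale (SE 0.12) and level in pair 1. CCND3, the D cyclin measured at 24.5 ± 1.70 in ROCK2 KD and 28.3 ± 3.55 in Scr shRNA (SD, n = 3 each), had -0.20 (SE 0.10) and was lower in all 3 pairs. It was the 1 gene of the 13 that was lower in all 3, against 12% of the genes tested, and 2 were higher in all 3, against 13.1%, CDKN2B and CDK4, the kinase that p15 inhibits. CDK4 was higher by 0.25, 0.053 and 0.017 on the log2 scale in pairs 1, 2 and 3.

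Of 18 cofactors of RB and E2F, 10 had a negative log2 fold change, and 4 (HCFC1, KAT2A, KAT5 and PRMT5) were lower in all 3 pairs (22.2%, against 12% of the genes tested), while 1, TRRAP, was higher in all 3, by as little as 0.0013 in pair 2. HCFC1, a cell-cycle cofactor of E2F1, was at -0.26 on the log2 scale (SE 0.099, unadjusted p = 0.0332, limma adjusted p = 0.886). KAT2A, an acetyltransferase, was at -0.27 (SE 0.12) and SIN3B, a corepressor, at -0.16. Of 11 genes of the degradation of E2F and RB proteins, 8 had a negative and 3 a positive log2 fold change, against 50.6% negative among the genes tested, and 1, CDC27, was lower in all 3 pairs. The median was -0.051, with CDC27 at -0.14, UBE2S at -0.11 and CUL1 at 0.082, and none came under an unadjusted p of 0.05 in limma.

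**Figure D5:**
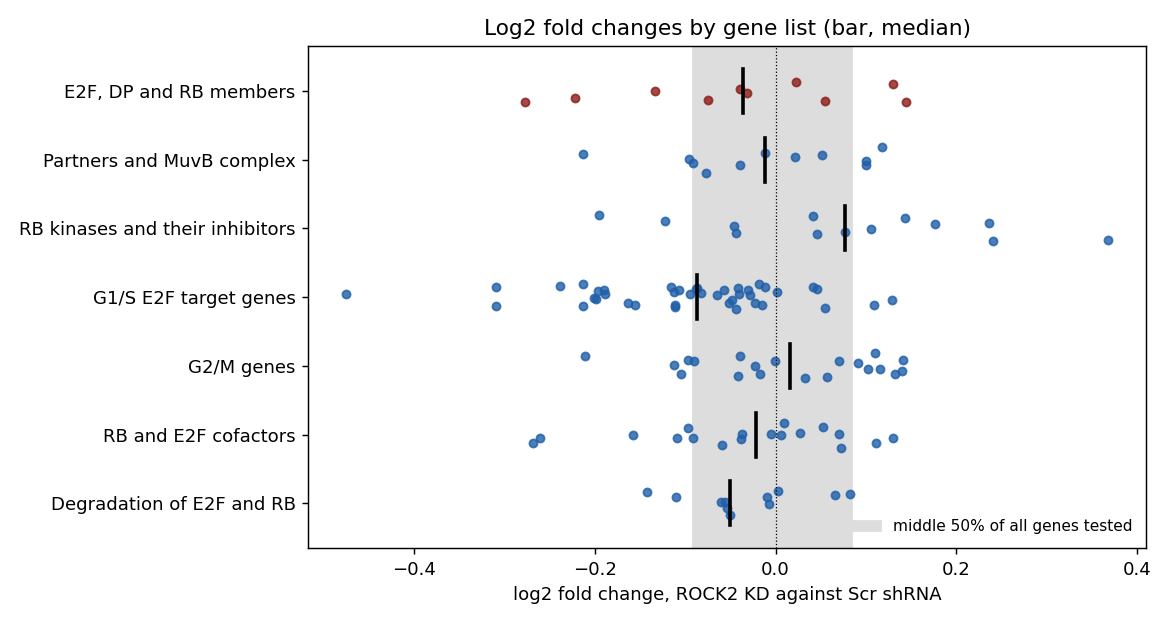
Log2 fold changes, ROCK2 KD against Scr shRNA, of the 10 members (red) and of the tested genes of 6 lists around them (blue), each point a gene and each black bar the median of its list. The gray band holds the middle 50% of all genes tested, from -0.091 to 0.085, and the G1/S list has the lowest median, -0.087.

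The E2F words of the promoters were also counted over all tested genes with a window. Of 568 genes with a word of 8 letters, 14.4% were lower and 10.6% higher in ROCK2 KD in all 3 pairs, against 11.4% and 13.6% of the 7390 genes without one, and their median log2 fold changes were -0.010 and 0.0020. Of 1381 genes with a word of 7 letters, 12.7% were lower and 12.7% higher in all 3 pairs, with a median of -0.0015. Over all 7958 tested genes with a window, 11.6% were lower and 13.4% higher in all 3 pairs. With 2 or more words of 7 letters, as in the windows of E2F1, E2F2, E2F3 and RBL1, 28 of 134 genes (20.9%) were lower in all 3 pairs and 10 (7.46%) were higher. The median of these 134 was -0.024. An unadjusted limma p under 0.05 was reached by 4.58% of the genes with a word of 8 letters and 5.26% of those without one. For the genes with 2 or more words of 7 letters it was 5.97%, against 5.21% of all tested genes with a window. Among the members with such windows the log2 fold changes ran from -0.28 for E2F1 to 0.054 for RBL1, so both signs occurred among them. Genes with these words are not independent of each other, and were not tested as a set.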

How the data were processed

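RNA-seq of 6 U2932 libraries was analysed, 3 of ROCK2 KD and 3 of Scr shRNA cells, grouped by their labels. The authors prepared Nextera libraries, aligned them with STAR (hg19) and derived FPKM with Cufflinks, and these deposited FPKM, 1 value for each of 20667 symbols, were used. FPKM hold no counts, so no counting interval is given. Libraries were brought to a common scale with a trimmed mean of log ratios (trims of 0.3 and 0.05). Genes reaching an FPKM of 1 in 3 or more libraries, 10526 in all, were then compared on log2(scaled FPKM + 1), which understates the differences of low genes. The model, in limma 3.58.1 (R 4.3.3), held the group, the replicate number as block and a mean-variance trend, was two-sided with Benjamini-Hochberg adjustment over all genes tested, and was tested on simulated data. Both groups are numbered alike in the labels, and the study corrects for batch by replicate. Libraries of 1 number deviated together from their group means (correlation across genes 0.742 to 0.855).

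Named are the 10 members, ROCK2 and, in each list, the 3 genes with the lowest unadjusted p. Other genes were named after their values were seen. The members and lists were chosen with earlier results of these data known, and the promoter words after the values had been seen. Gene positions are from GENCODE 44 on GRCh37 (hg19), and promoters from RefSeq on GRCh38.p14. Python 3.11.15, pandas 2.3.3, numpy 2.4.6 and matplotlib 3.10.9 served for joins and plots. Alternatives covered the block, ComBat, the pseudocount, the filter, the scaling, the trend and leaving out each replicate.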

Additional observations from a re-analysis of the deposited data

How the results depend on the processing

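Under 12 alternatives, 114 of 120 log2 fold changes of single members kept their sign, and none came to an adjusted p under 0.05 in limma. Changing only the block, the filter or the trend leaves a log2 fold change as it is by construction, so those agreements carry no information. E2F1, E2F2, E2F8 and TFDP1 kept their sign throughout. E2F1 lay between -0.37 and -0.16, E2F2 between -0.34 and -0.11, E2F8 between -0.20 and -0.087, and TFDP1 between -0.14 and -0.011. The 6 that changed sign each came from leaving out a pair. Without replicate 1 E2F4 was at 0.062, E2F5 at -0.14 and E2F7 at 0.10, without replicate 2 E2F3 was at -0.14 and RBL1 at -0.076, and without replicate 3 RB1 was at -0.013. At the other end of these fits, E2F4 was at -0.17 and E2F7 at -0.17 without replicate 2, E2F3 at 0.11, E2F5 at 0.34 and RBL1 at 0.14 without replicate 3, and RB1 at 0.22 without replicate 1. Leaving out 1 pair at a time, the members lower in both remaining pairs numbered 1 to 7 (7 without replicate 2), and the median of the members lay between -0.15 (without replicate 2) and -0.013. Genes with an adjusted p under 0.05 numbered 0 to 4, those with an unadjusted p under 0.05 numbered 398 to 876, and G1/S genes with a negative value, a count added after seeing the data, numbered 23 (without replicate 3) to 35. A pair fewer makes agreement in sign easier by construction, and the share of all genes that agreed over the remaining pairs is not given here.

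Without the replicate block, 26 genes had an unadjusted p under 0.05 in place of 573, and neither fit gave any adjusted p under 0.05. ComBat on the replicate number followed by limma without a block called 296 genes at an adjusted p under 0.05 and 2126 at an unadjusted one. That order of steps does not charge the fit for the replicate means it removed. Quantile normalization made 3 members lower in all pairs, and the cause was not tested. Depth is known only relative to another library, so the reads behind low members such as RBL1 cannot be given.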

Other observations

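E2F6, TFDP2, MYBL1 and MYBL2, relatives outside the 10 members that were picked after their values were seen, differed in sign from pair to pair. E2F6, a repressor that works without pocket proteins, was at 6.28, 7.28 and 8.85 scaled FPKM in ROCK2 KD replicates 1, 2 and 3 and at 9.05, 6.99 and 8.04 in Scr shRNA, with a log2 difference of -0.47 in pair 1 and differences of 0.052 and 0.12 in the others. TFDP2, the second DP partner, was at 6.20, 7.28 and 4.81 in ROCK2 KD and at 6.39, 7.09 and 6.01 in Scr shRNA. MYBL1, a relative of the MuvB partner MYBL2, had the most divided pairs, with log2 differences of 0.60, -0.26 and -0.98 in pairs 1, 2 and 3 (log2 fold change -0.21, standard error 0.27), while MYBL2 itself, one of the higher genes at 58.8 to 199.8 scaled FPKM, had 0.22, -0.095 and -0.24. Both genes were thus higher in ROCK2 KD in pair 1 and lower in pairs 2 and 3, a division shared among the 10 members by E2F5 and, with a pair 1 difference of 0.0054, by E2F2.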
